A study of Mus musculus with 6 samples.

Results

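Metformin is a charged, water-soluble drug that crosses cell membranes poorly without a carrier, and the 6 genes described here encode membrane carriers that are known to move it or related organic cations: Slc22a2, Slc22a3, Slc22a4, Slc22a5, Slc29a4 and Slc47a1. They were chosen by gene symbol, and each symbol matched 1 row, so the 6 genes are 6 of the 54532 genes of the deposited table. The table holds RNA sequencing of MC3T3-E1, a mouse pre-osteoblast line derived from newborn skull bone, kept for 3 days in osteogenic medium, which contains β-glycerophosphate, ascorbic acid and dexamethasone. The 3 control samples (OM1, OM2 and OM3) received this medium alone, and the 3 treated samples (Met1, Met2 and Met3) also received metformin at 0.2 mM. Dose and duration are taken from the study's text, not from the labels, and all 6 samples are of this 1 established line. Both groups carried dexamethasone, and no sample without osteogenic medium was analysed here.

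The organic cation transporters of the SLC22 family let charged molecules pass the plasma membrane along their electrochemical gradient. In the liver and the kidney they pass cations from the blood into the cell, and the multidrug and toxin extrusion protein encoded by Slc47a1 exports them in exchange for protons. Slc22a2 (OCT2) is best known from the kidney tubule, and Slc22a3 (OCT3, the extraneuronal monoamine transporter) is found in many tissues. Slc22a4 (OCTN1) and Slc22a5 (OCTN2) are close relatives whose preferred substrates are ergothioneine and carnitine, and Slc29a4 (PMAT) is a monoamine and cation carrier of the nucleoside transporter family. At body pH metformin is itself such a cation.

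With or without metformin, transcripts of these carriers in MC3T3-E1 cells came mostly from Slc22a5. Its level was 6.09 ± 0.299 FPKM in osteogenic medium and 6.13 ± 0.195 FPKM with metformin (mean ± SD, n = 3 each), where FPKM is a read count made comparable between genes by dividing by transcript length and library size. Slc22a4 followed at 1.82 ± 0.196 and 1.49 ± 0.111 FPKM. Slc29a4 was at 0.289 ± 0.0632 FPKM in osteogenic medium and at 0.851 ± 0.296 FPKM with metformin. It was the member that passed the test, but it reached the level needed for testing only through the metformin samples, and the call was lost with no filter, with a GC correction and in 4 of 5 fits without 1 sample. Slc22a2 and Slc47a1 gave no more than 8 reads in any sample, and Slc22a3 gave no read in any of the 6 samples.

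Of the 6 genes, 3 reached the mean of 0.5 FPKM over all samples that the test required, and 1 of these 3, Slc29a4, was called higher with metformin at an adjusted p under 0.05 (limma with Benjamini-Hochberg adjustment over all tested genes). All 3 controls of Slc29a4 were under 0.5 FPKM, so it was tested only because of the group in which it was high, and with no filter its adjusted p was 0.0648. None of the 3 was called lower. Over the 12681 genes tested, 13.2% were called higher and 9.28% lower, against which 1 of 3 members is too few to set the carriers apart. The 3 metformin samples lay wholly above the 3 control samples for 23.6% of tested genes and wholly below them for 20.5%. Among the tested members, Slc29a4 was wholly above, Slc22a4 wholly below and Slc22a5 overlapped.

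**Figure D1:**
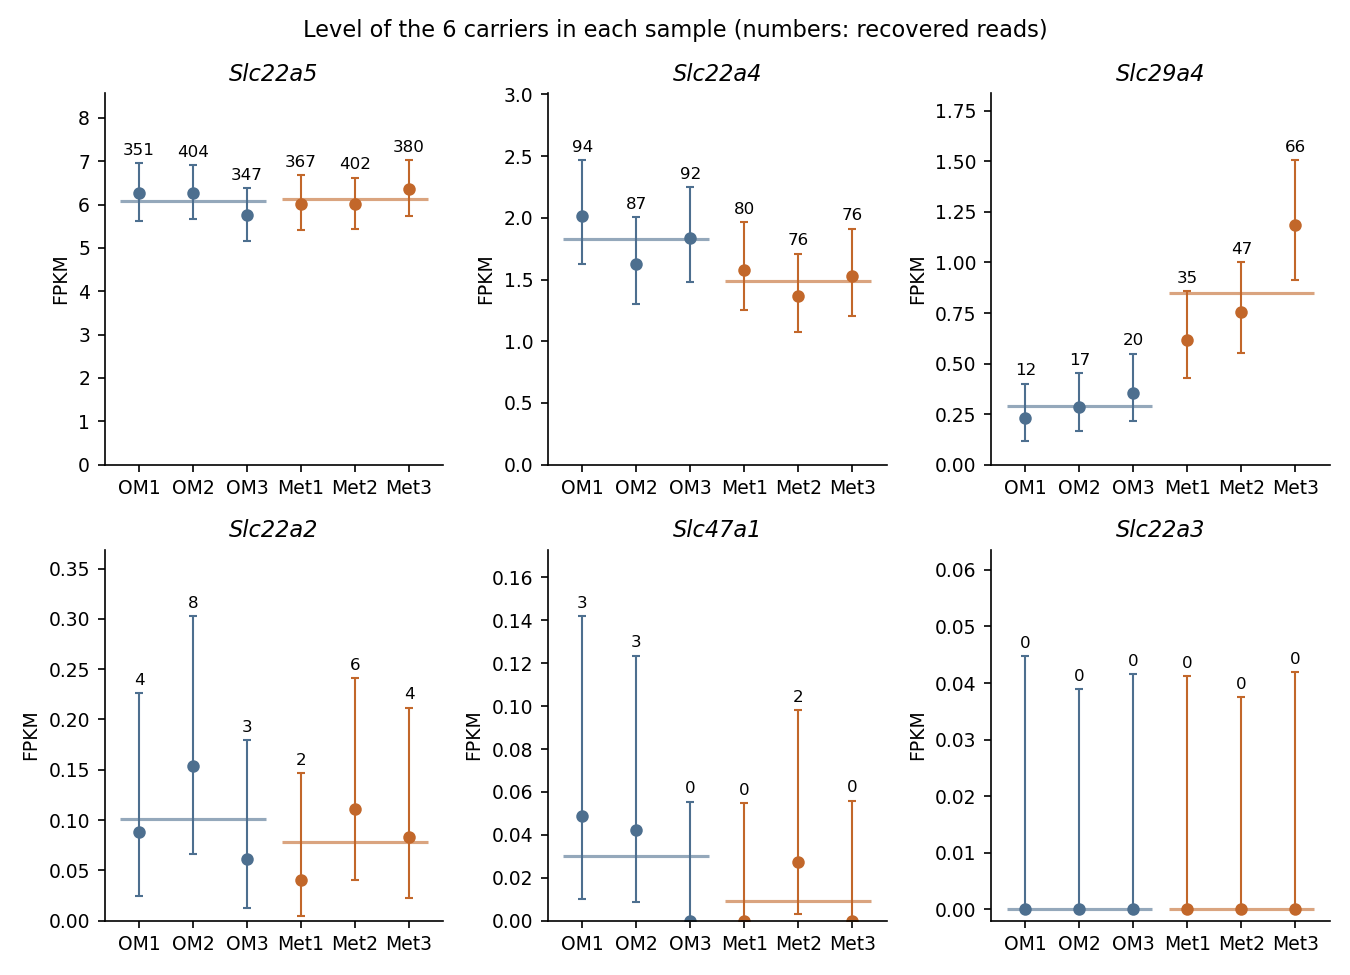
FPKM of each carrier (vertical axis, linear, a separate range for each gene) in the 3 control samples (OM1 to OM3) and the 3 metformin samples (Met1 to Met3), with the recovered reads printed above each point. Bars are exact 95% Poisson intervals of the reads, which cover counting error only, and horizontal lines are group means; the metformin points of Slc29a4 all lie above its control points, those of Slc22a4 all lie below, and Slc22a3 sits at 0 in every sample.

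The reads behind the FPKM values were recovered from the table, and came to between 18399861 and 22111790 per sample. Metformin replicates had Pearson correlations of 0.992 with each other across genes, and OM2 and OM3 had 0.988, whereas OM1 stood apart with 0.96 and 0.952 to the other controls. Across genes, which are not independent replicates, what set OM1 apart from OM2 and OM3 ran with transcript GC content (Spearman rho -0.668). All 8 osteoblast markers passed the FPKM limit, and in the fit of all 6 samples 2 were called higher, 2 lower and 4 were not called. Of these 4, Sp7 was called higher without OM1 or OM2 (limma adjusted p = 0.0225 and 0.0346) and with the GC correction (0.0203). Bglap was called lower without OM1 (log2 fold change -0.91, limma adjusted p = 0.0028). The collagen genes Col1a1 (1339 ± 359 against 2487 ± 108 FPKM, limma adjusted p = 0.0230) and Col1a2 (969.6 ± 28.3 against 1444 ± 74.0, 0.00719) were higher with metformin, and the matrix genes Spp1 (7703 ± 989 against 2704 ± 23.4, 0.000471) and Ibsp (814 ± 149.8 against 265 ± 4.41, 0.000578) were lower. The Col1a1 call was lost without Met1, Met2 or Met3 (adjusted p between 0.0749 and 0.0943) and that of Col1a2 without Met1 or Met2 (0.0515 to 0.0558), and with no filter those of Col1a1, Col1a2 and Spp1 were lost (0.179 to 0.198). Alpl, the alkaline phosphatase gene, was at 3.16 ± 0.596 FPKM in osteogenic medium and 2.71 ± 0.286 with metformin and was not called. The 4 kidney tubule and liver markers (Umod, Lrp2, Alb and Apoa1), which belong to the organs where Slc22a2 and Slc47a1 are abundant, were all under the limit and Umod had no read; their summed level was 0.0793 to 0.705 FPKM in osteogenic medium and 0.0196 to 0.0498 FPKM with metformin. None of the 4 endothelial or 4 muscle markers reached the limit. Of the 4 adipocyte markers Fabp4 passed, and their summed level was 1.65 to 3.08 FPKM in osteogenic medium and 1.88 to 2.31 with metformin. Of the 4 chondrocyte markers Col2a1 and Col10a1 passed (summed 9.71 to 15.5 and 8.65 to 9.90 FPKM), and Col10a1 fell from 3.79 ± 0.720 to 0.264 ± 0.0778 FPKM (limma adjusted p = 0.000206). Of the 4 macrophage markers Cd68 passed (summed 1.97 to 2.18 and 1.12 to 1.35 FPKM), and of the markers that define such cells Ptprc and Adgre1 gave reads in 1 sample each, while Csf1r gave 1, 1 and 3 reads in OM1, OM2 and OM3 and 6, 8 and 4 in Met1, Met2 and Met3. The part of other cell types in the results was not tested. In bulk RNA, fewer cells that express a carrier cannot be told apart from less carrier RNA per cell.

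To set the levels beside the gene starts, 250 bases before the annotated start are printed for 3 of the carriers: the most abundant, the member that passed the test and the member without a read. The sequences are RefSeq's on GRCm38.p6, read 5′ to 3′ on the strand of the gene, and capitals mark the GC box letters GGGCGG or CCGCCC, the same motif on either strand, counted without overlap. The Slc22a5 window is chr11:53891704-53891953 on the minus strand, that of Slc29a4 is chr5:142701851-142702100 on the plus strand, and that of Slc22a3 is chr17:12507705-12507954 on the minus strand. No base of the 3 windows lies in an annotated exon of its gene.
Slc22a5: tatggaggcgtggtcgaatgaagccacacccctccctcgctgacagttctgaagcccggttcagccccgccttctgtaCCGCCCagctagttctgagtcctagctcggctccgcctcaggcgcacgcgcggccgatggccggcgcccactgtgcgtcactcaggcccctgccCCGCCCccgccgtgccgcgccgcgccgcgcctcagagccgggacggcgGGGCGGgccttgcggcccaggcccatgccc
Slc29a4: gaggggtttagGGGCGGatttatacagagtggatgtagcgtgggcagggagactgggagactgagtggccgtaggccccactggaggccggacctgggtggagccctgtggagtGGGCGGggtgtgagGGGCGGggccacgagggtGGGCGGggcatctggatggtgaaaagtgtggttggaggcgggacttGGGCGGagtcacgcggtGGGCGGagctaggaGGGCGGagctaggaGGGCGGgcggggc
Slc22a3: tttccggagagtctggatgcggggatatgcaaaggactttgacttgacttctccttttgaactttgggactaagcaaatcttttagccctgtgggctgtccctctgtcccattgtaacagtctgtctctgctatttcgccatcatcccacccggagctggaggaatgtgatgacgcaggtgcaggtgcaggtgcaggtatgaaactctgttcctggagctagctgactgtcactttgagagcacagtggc
The Slc29a4 window holds 8 GC boxes, that of Slc22a5 holds 3 and that of Slc22a3 holds 0. Of the other matched members, Slc22a4 has 2 and Slc22a2 has 0, and 5 of the 6 members had an entry, Slc47a1 being the other one. At least 1 GC box is present in 32.7% of all 32851 windows of that length. The GC content was 73.6% for Slc22a5, 71.2% for Slc22a4 and 68.8% for Slc29a4, against 51.6% for Slc22a2, 51.2% for Slc22a3 and a median of 52.4% over all windows. The windows of the 3 carriers with the higher transcript levels were the 3 richer in GC, over 5 genes and as a description only. The letters TATAAA occur in the last 50 bases of none of the 5 windows, and in 2.63% of all windows. A match to these letters is a description and not a bound site.

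Slc22a5 encodes the sodium-dependent carnitine carrier OCTN2. The gene (ENSMUSG00000018900) spans chr11:53864542-53891660 on the minus strand of GRCm38, and its longest coding transcript has 10 exons. Its reads were 351, 404 and 347 in OM1, OM2 and OM3, and 367, 402 and 380 in Met1, Met2 and Met3. In FPKM these are 6.26, 6.27 and 5.75 without metformin, and 6.02, 6.01 and 6.35 with it. The groups overlapped, with the highest value in Met3 and the lowest in OM3. The log2 fold change on the log2(FPKM + 1) scale was 0.0074 ± 0.077 (SE, 95% interval -0.18 to 0.19, limma adjusted p = 0.958). A change of between 0.885-fold and 1.14-fold on that scale thus lies within the interval. The sign of so small a value is not stable: it was -0.028 without OM3 and -0.015 without Met3, and also below 0 with scaling by total reads. The Slc22a5 level put it at percentile 70.2 of all genes with reads in osteogenic medium and at percentile 47.2 of the tested genes.

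Slc22a4 encodes OCTN1, the ergothioneine carrier, and is separated from Slc22a5 by Slc22a21. The Slc22a4 gene (ENSMUSG00000020334) lies on the same strand as Slc22a5 at chr11:53983123-54028090. It had 94, 87 and 92 reads in OM1, OM2 and OM3 and 80, 76 and 76 in Met1, Met2 and Met3. The levels were 2.02, 1.62 and 1.83 FPKM without metformin and 1.58, 1.37 and 1.53 FPKM with it. Every metformin value was below every control value, although the gap between Met1 and OM2 was narrow. The log2 fold change was -0.18 ± 0.096 (SE; 95% interval -0.41 to 0.049) and did not pass the test (limma adjusted p = 0.230). In none of the fits that each left out 1 sample did it pass, with adjusted p-values from 0.187 to 0.504. The ratio of summed reads per depth, metformin over control, was 0.819 with an exact 95% interval of 0.684 to 0.979, which covers counting error only and not the spread between samples.

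Per length, Slc22a5 was between 3.10 and 4.40 times the level of Slc22a4 in each of the 6 samples. Slc22a4 was at 32.2%, 25.9% and 31.9% of the Slc22a5 level in OM1, OM2 and OM3 and at 26.2%, 22.7% and 24.1% in Met1, Met2 and Met3. These ranges overlapped, since OM2 lay under Met1.

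**Figure D2:**
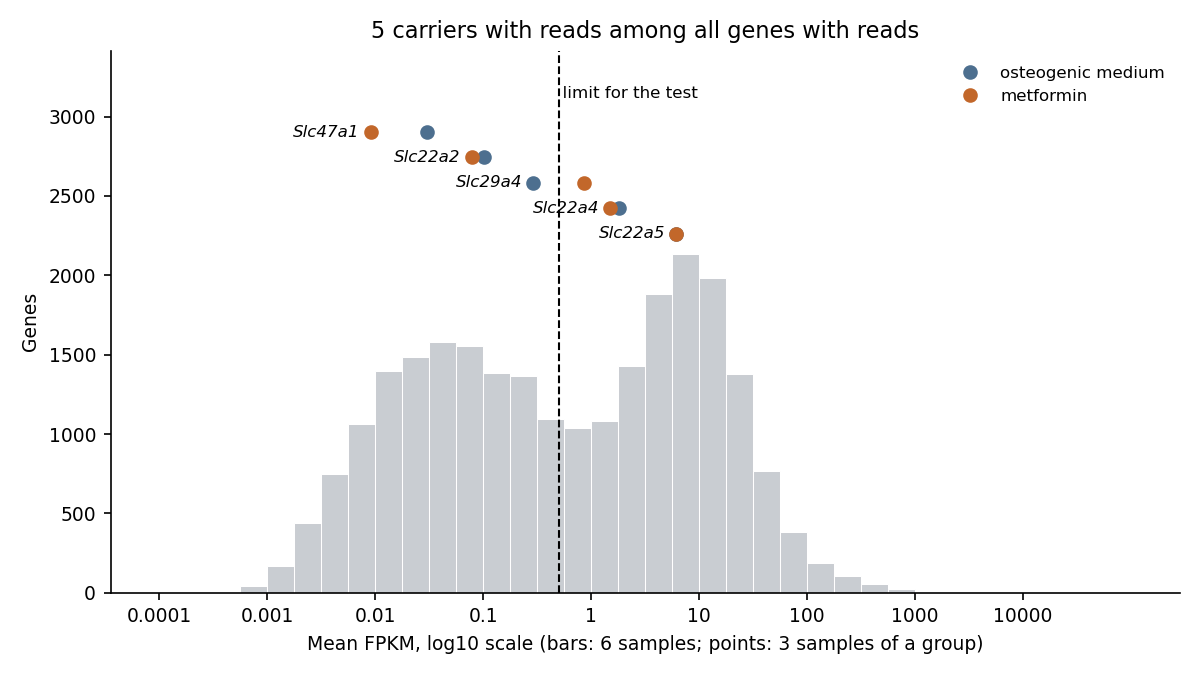
Number of genes (vertical axis) by mean FPKM over the 6 samples (horizontal axis, log10 scale) for all genes with at least 1 read, with the group means of the 5 carriers that had reads drawn as points above; both points of Slc22a5 coincide. The dashed line is the limit of 0.5 FPKM for the test: Slc22a5 and Slc22a4 lie above it in both groups, Slc29a4 lies below it in osteogenic medium and above it with metformin, and Slc22a2 and Slc47a1 lie below it in both.

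Slc29a4 encodes PMAT, which moves serotonin, dopamine and other organic cations. The gene (ENSMUSG00000050822) spans chr5:142692512-142722490 on the plus strand, and the RefSeq start used for the printed window lies inside this span. There were 12, 17 and 20 reads in OM1, OM2 and OM3, and 35, 47 and 66 in Met1, Met2 and Met3. The levels were 0.230, 0.283 and 0.356 FPKM without metformin, and 0.616, 0.754 and 1.18 FPKM with it. All 3 metformin samples were above all 3 controls. Within the metformin group Met3 was the highest, with an exact Poisson interval of 0.916 to 1.51 FPKM, against 0.554 to 1.00 FPKM for Met2 and 0.429 to 0.857 FPKM for Met1; these intervals cover counting error only.

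The mean FPKM of Slc29a4 with metformin was 2.94 times that in osteogenic medium, and summed reads per depth rose 2.91-fold (exact 95% interval 2.09 to 4.11, for counting error only). On the log2(FPKM + 1) scale, which understates changes of low genes, the log2 fold change was 0.51 ± 0.14 (SE, 95% interval 0.18 to 0.85, limma adjusted p = 0.0423). With a pseudocount of 0.1 it was 1.26 (adjusted p = 0.0391), and 1.48 with voom on the recovered reads (adjusted p = 0.0251). Its mean over the 6 samples, 0.570 FPKM, passed the limit only through the metformin samples, all of which were above 0.5 FPKM while all controls were below.

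The direction of Slc29a4 held in every alternative that gave a value, but its place past the threshold did not. Without OM1 the call held (0.48, limma adjusted p = 0.0480). It was lost without OM2 (0.51, adjusted p = 0.107), OM3 (0.55, 0.0713), Met1 (0.60, 0.0619) or Met2 (0.54, 0.112), and without Met3 the gene fell under the FPKM limit and was not tested. The call was also lost with no filter on low values (adjusted p = 0.0648), when more genes enter both the fit and the adjustment. It was lost too with a correction for GC content (log2 fold change 0.42, adjusted p = 0.125). The Slc29a4 transcript has a GC content of 60.1%, against 49.8% to 51.1% for the other 5 members, and its lowest value was in OM1, the library whose deviations ran with GC content; the part of GC content in the result was not tested beyond this correction.

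**Figure D3:**
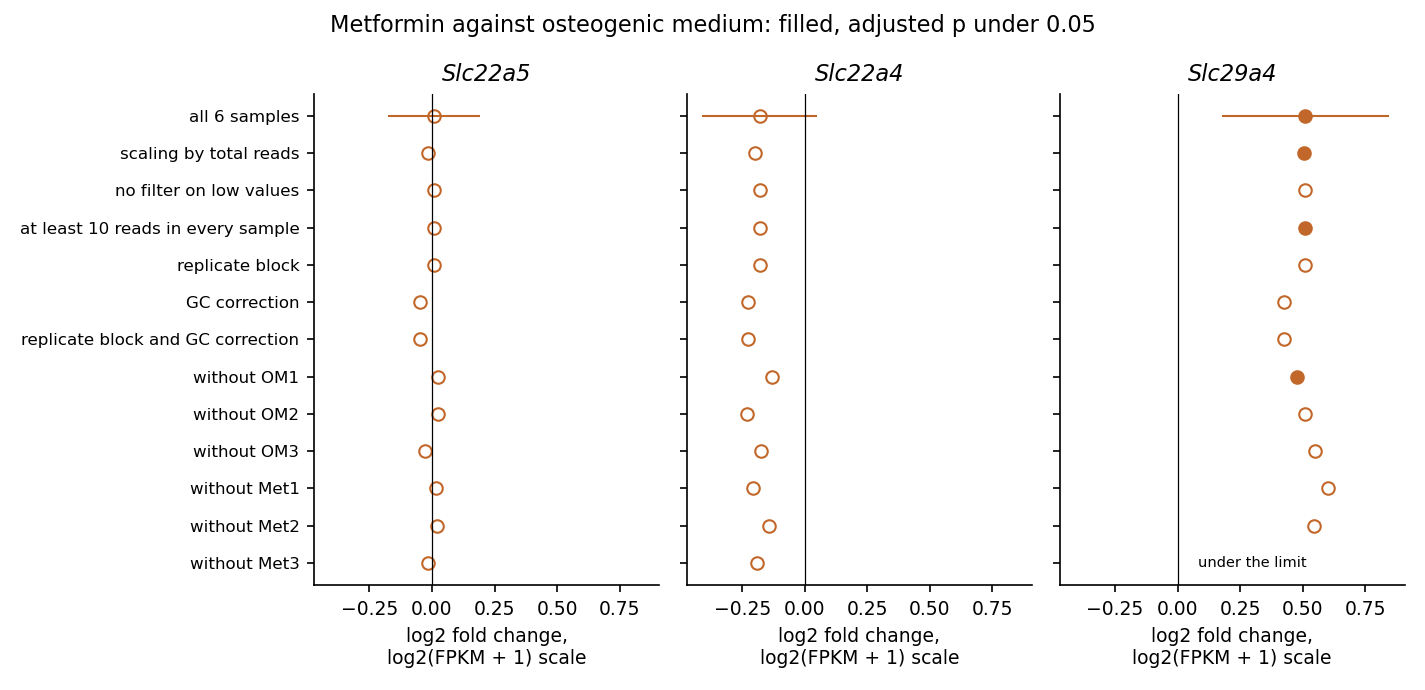
log2 fold change of metformin against osteogenic medium on the log2(FPKM + 1) scale (horizontal axis) for the 3 tested carriers under the settings that keep this scale (rows), which leaves out the pseudocount of 0.1 and voom; the bar on the top row is the 95% interval and a filled point has a limma adjusted p under 0.05. Slc29a4 stays between 0.42 and 0.60 in all settings drawn but is filled in only some of them, whereas Slc22a5 stays between -0.048 and 0.026 and Slc22a4 below 0, neither filled.

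Slc22a2 encodes OCT2, the cation uptake carrier of the kidney tubule. Its gene (ENSMUSG00000040966) is at chr17:12584132-12628488 on the plus strand. OM1, OM2 and OM3 gave 4, 8 and 3 reads and Met1, Met2 and Met3 gave 2, 6 and 4. The groups overlapped, and the summed 15 reads without metformin (exact Poisson interval 8.40 to 24.7) and 12 with it (6.20 to 20.96) cannot be separated at this depth. The mean level was 0.101 ± 0.0474 FPKM without metformin and 0.0781 ± 0.0354 FPKM with it. The difference of mean log2(FPKM + 1) was -0.030 (two-sided exact permutation test over the 6 samples, p = 0.60, where the smallest p that 3 against 3 allows is 0.10), and without OM2, the sample with the most reads, it was 0.0039. The ratio of summed reads per depth was 0.771 with an exact interval of 0.329 to 1.76, so neither a fall to that lower bound nor a rise to the upper one could be told from no change.

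Slc47a1 encodes MATE1, which exports organic cations. The gene (ENSMUSG00000010122) is at chr11:61343401-61378345 on the minus strand. It had 3, 3 and 0 reads in OM1, OM2 and OM3 and 0, 2 and 0 in Met1, Met2 and Met3. The groups overlapped at 0. The summed reads, 6 without metformin (exact Poisson interval 2.20 to 13.1) and 2 with it (0.242 to 7.22), had a ratio per depth of 0.321 with an exact interval of 0.0317 to 1.80. The exact permutation test of log2(FPKM + 1) over the 6 samples gave p = 0.40.

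Slc22a3 encodes OCT3, a low-affinity monoamine and cation carrier. The gene (ENSMUSG00000023828) is at chr17:12418960-12507704 on the minus strand. It had 0 reads in all 3 controls and in all 3 metformin samples. A floor of 3 reads per library, the usual limit for a count of 0, is 0.0305 to 0.0364 FPKM for this gene, and the two-sided exact Poisson interval drawn in the plot of the 6 carriers reaches somewhat higher, to 3.69 reads or 0.0375 to 0.0448 FPKM. Against the 3-read floor Slc22a5 was at least 170-fold higher per length than Slc22a3 in each sample. Across the data 54.5% of all genes, and 28.0% of the 22046 protein-coding genes, had no read in any sample.

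The order of levels was the same in both groups: Slc22a5, Slc22a4, Slc29a4, Slc22a2, Slc47a1 and Slc22a3. Within either group, the samples of each of the first 4 genes did not overlap those of the gene next in order. The counting intervals of Slc22a2 and Slc47a1 overlapped in each of the 6 samples. Those of Slc22a4 and Slc29a4 overlapped in Met3, and those of Slc29a4 and Slc22a2 in OM1 and OM2. Slc47a1 had samples at 0 like Slc22a3. Summed over the 6 genes the level was 8.34 ± 0.323 FPKM in osteogenic medium and 8.56 ± 0.511 FPKM with metformin. Slc22a5 made up 71.9% to 74.9% of this sum in the controls and 69.4% to 72.9% with metformin. The share of Slc22a4 was 19.4% to 23.3% and 16.5% to 19.1%. The share of Slc29a4 was 2.66% to 4.44% in the controls and 7.46% to 12.9% with metformin. Relative to Slc22a5 alone, Slc29a4 was at 3.67%, 4.52% and 6.18% in OM1, OM2 and OM3 and at 10.2%, 12.5% and 18.6% in Met1, Met2 and Met3. The latter shares use only values within a library, and the groups did not overlap in them. The exact permutation test of these shares gave p = 0.10, the smallest that 3 against 3 allows. Since the Slc22a5 level was nearly the same in both groups, the shares repeat the Slc29a4 values and are no separate support.

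The members sit in gene clusters, and their neighbours show what else of each locus was transcribed. On chromosome 11, Slc22a5, Slc22a21 and Slc22a4 lie in a row on the minus strand between Irf1 and P4ha2. Slc22a21, another carnitine carrier of this family, was at 3.78 ± 0.341 FPKM without metformin and 3.24 ± 0.232 FPKM with it, and was not called (log2 fold change -0.17, limma adjusted p = 0.235). P4ha2, a collagen prolyl hydroxylase 72.0 kb beyond Slc22a4, was higher with metformin, at 10.3 ± 0.518 against 15.1 ± 0.695 FPKM (0.51, adjusted p = 0.00565), and passed without each sample in turn. Slc22a5 and Slc22a21 have 98.3% identical transcript sequence over 831 bases, so reads could be split between them depending on how the counting treated shared reads. Irf1 on the other side was not called (log2 fold change -0.015, adjusted p = 0.933).

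On chromosome 17, Slc22a3 and Slc22a2 lie in the same region between Map3k4 and Igf2r, the nearest tested genes. These were at 5.24 ± 0.549 and 49.4 ± 5.93 FPKM in osteogenic medium, and neither was called, although Igf2r was called higher without OM1 (0.29, limma adjusted p = 0.0473). Plg and an antisense gene, AC132106.1, overlap Slc22a3; Plg had 2 reads over all samples and the antisense gene had 0. Both members in this region were at or near 0 between transcribed neighbours.

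On chromosome 5, Slc29a4 lies between Wipi2, an autophagy gene, and Tnrc18. Wipi2 was lower with metformin, at 12.9 ± 0.566 against 9.34 ± 0.493 FPKM (log2 fold change -0.43, limma adjusted p = 0.0105), a call lost without Met2 or Met3 (adjusted p between 0.0655 and 0.0669). Tnrc18 ends 2.17 kb from Slc29a4 on the opposite strand and was at 26.3 ± 12.1 and 38.3 ± 1.18 FPKM without being called (0.61, adjusted p = 0.165), although it was called higher without OM3 (0.95, adjusted p = 0.00228). Whether reads were counted by strand is not stated in the sources used here. Slc47a1 lies next to Slc47a2, which had no read, and its nearest tested neighbours, Aldh3a2 and Mapk7, were not called (limma adjusted p = 0.777 and 0.855), although Mapk7 was called lower without OM1 (-0.18, adjusted p = 0.0377).

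**Figure D4:**
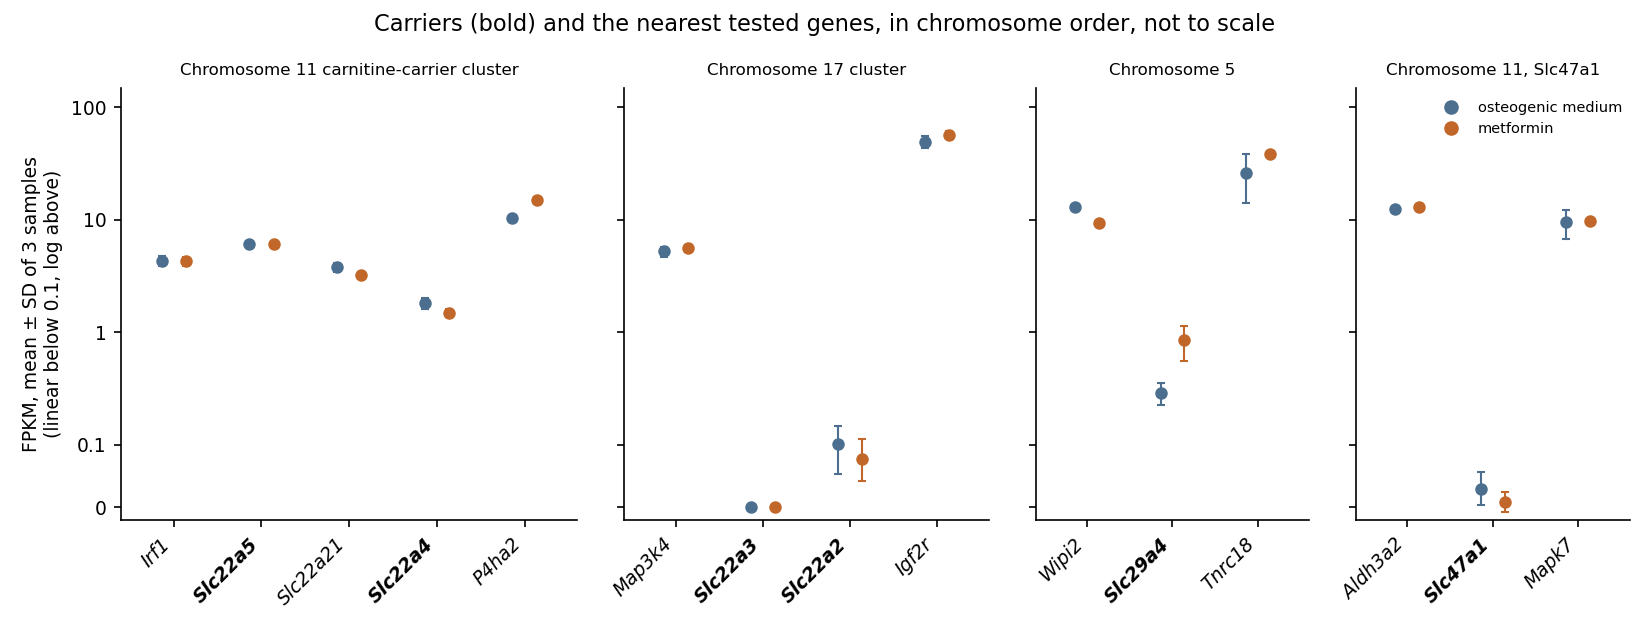
Mean FPKM ± SD (vertical axis, linear below 0.1 and log above; n = 3 samples per group) of the carriers, in bold, and the nearest tested genes on either side, in chromosome order and not to scale. Slc22a3 and Slc22a2 stand at or near 0 between Map3k4 and Igf2r, and Slc47a1 near 0 between Aldh3a2 and Mapk7. Among the tested carriers the group means of Slc29a4 lie farthest apart, and those of Slc22a4 less far.

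For the 3 tested members, the genes with the most similar pattern over the 6 samples were found by the root mean square difference of log2(FPKM + 1) values, each centred on its own mean. For Slc29a4 they were Khdrbs3 (0.0763), Fen1 (0.0805) and Cgref1 (0.0885), against a root mean square of 0.289 for Slc29a4 around its own mean. For Slc22a4 they were Pou2f1 (0.0200), Fnbp4 (0.0249) and Rcan2 (0.0275), against 0.113. For Slc22a5 they were Tmem183a (0.0244), Slc25a51 (0.0263) and Klhl2 (0.0267), against 0.0422. Within 2 times the distance of the nearest gene lay 193 genes for Slc29a4, 20 for Slc22a4 and 83 for Slc22a5. The named genes are therefore not distinct matches. Fen1 was at 0.239 FPKM in osteogenic medium and 0.942 FPKM with metformin, so like Slc29a4 it passed the limit only through the metformin samples. These are descriptions over 6 shared libraries.

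Other carriers and enzymes that handle the same substrates were looked at in 5 lists of 72 genes. Of these 35 were tested, 3 were higher with metformin, 7 were lower and 25 were not called, beside a background of 13.2% higher and 9.28% lower. A further 18 had no read in any sample. Without each sample in turn, 3 of the 10 calls (Slc6a4, Slc22a23 and Runx1) were kept every time.

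Of 18 further carriers of cations, thiamine, choline and nucleosides, 10 were tested, and 2 were lower. Slc6a4, the serotonin transporter, had 178, 233 and 163 reads in OM1, OM2 and OM3 and 31, 28 and 34 in Met1, Met2 and Met3. The groups lay far apart, at 2.14 ± 0.311 and 0.338 ± 0.0512 FPKM, with a log2 fold change of -1.23 ± 0.11 (SE, limma adjusted p = 0.00052). In osteogenic medium Slc6a4 was thus above Slc29a4 per length, and with metformin it was below. Both proteins take up serotonin. Slc29a1 (ENT1), the main nucleoside carrier and a relative of Slc29a4, fell from 74.8 ± 6.52 to 55.6 ± 2.99 FPKM (-0.42, adjusted p = 0.0265), but this call was lost without OM2, OM3, Met1, Met2 or Met3 (adjusted p between 0.0582 and 0.124). Slc29a2 and Slc29a3, the other family members, were not called. Slc44a1, a choline carrier, was at 41.9 ± 11.3 and 31.9 ± 0.659 FPKM and was not called, although it was called lower with the GC correction (-0.36, adjusted p = 0.0277). Slc22a16, Slc19a3 and Slc47a2 had no read. The median log2 fold change of the 10 was -0.07, beside 0.0053 for all tested genes.

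Of 18 other SLC22 genes, 4 were tested and 10 had no read. Slc22a23, an orphan member, was at 3.04, 2.58 and 3.14 FPKM in OM1, OM2 and OM3 and at 1.14, 1.27 and 1.22 FPKM in Met1, Met2 and Met3, a log2 fold change of -0.83 ± 0.094 (SE, limma adjusted p = 0.00149). Slc22a18 fell from 1.03 ± 0.167 to 0.348 ± 0.0390 FPKM (-0.59, adjusted p = 0.00981), and the call was lost without Met1 or Met2 (adjusted p between 0.0514 and 0.0518). Slc22a15 and Slc22a17 were not called, and the median of the 4 was -0.27. The organic anion carriers Slc22a6 and Slc22a8 had no read.

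Since Slc22a5 brings carnitine into the cell, 13 genes of carnitine use and synthesis were listed, of which 10 were tested. Slc16a9, a carrier known to export carnitine, was higher, at 5.44 ± 0.872 against 7.71 ± 0.333 FPKM (0.44, limma adjusted p = 0.0333), and Slc25a29, a mitochondrial carrier, was lower, at 1.96 ± 0.335 against 1.19 ± 0.0698 FPKM (-0.43, adjusted p = 0.0346). Both calls were lost without OM2, OM3, Met1, Met2 or Met3, with adjusted p-values from 0.0633 to 0.132 for Slc16a9 and from 0.0774 to 0.134 for Slc25a29, and when no gene was filtered out for a low level (0.0721 and 0.0968). The Slc16a9 transcript also has stretches near-identical to those of Gm9877 and Gm7097, which overlap Slc16a9 on the opposite strand and had no read here. The other 8 were not called, and of these Cpt1a, the carnitine palmitoyltransferase of the outer mitochondrial membrane, had the highest level, at 29.2 ± 1.22 and 25.2 ± 0.822 FPKM. Cpt1a was called lower without OM1 (-0.17, adjusted p = 0.0443) and with the GC correction (-0.25, 0.0343), and the median of the 10 was -0.12.

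Of 9 genes of amine uptake and breakdown, 3 were tested. Maoa, which oxidizes serotonin and catecholamines, was higher, at 5.31 ± 0.123 against 6.81 ± 0.171 FPKM (0.31, limma adjusted p = 0.0246), a call lost without OM2, Met1, Met2 or Met3 (adjusted p between 0.0554 and 0.12) and with the GC correction (0.0507). A stretch of the Maoa transcript is near-identical to transcripts of Cul4a, Dpp10 and others. The other 2 were not called, among them Aoc2, and the median of the 3 was 0.20. The noradrenaline transporter Slc6a2 was under the limit and the dopamine transporter Slc6a3 had no read.

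Of 14 scaffold, proton exchange and transcription regulators, 8 were tested. Runx1 was higher, at 4.07 ± 0.161 against 6.09 ± 0.118 FPKM (0.48, limma adjusted p = 0.00501). Nfe2l2, which encodes the oxidative stress factor Nrf2, was lower, at 31.9 ± 2.51 against 24.4 ± 0.517 FPKM (-0.37, adjusted p = 0.0266), and so was Usf1, at 14.6 ± 1.55 against 10.6 ± 0.304 FPKM (-0.43, adjusted p = 0.0230). The Nfe2l2 call was lost without OM2, Met1, Met2 or Met3 (adjusted p between 0.0778 and 0.124), that of Usf1 without any sample but OM1 (0.0540 to 0.106). The Usf1 transcript is 98.2% identical to that of Gm12345 over 762 bases. The liver factor Hnf4a and the scaffold Pdzk1 had at most 4 reads in any sample, and the proton exchanger Slc9a3 had none. The median of the 8 was -0.17.

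**Figure D5:**
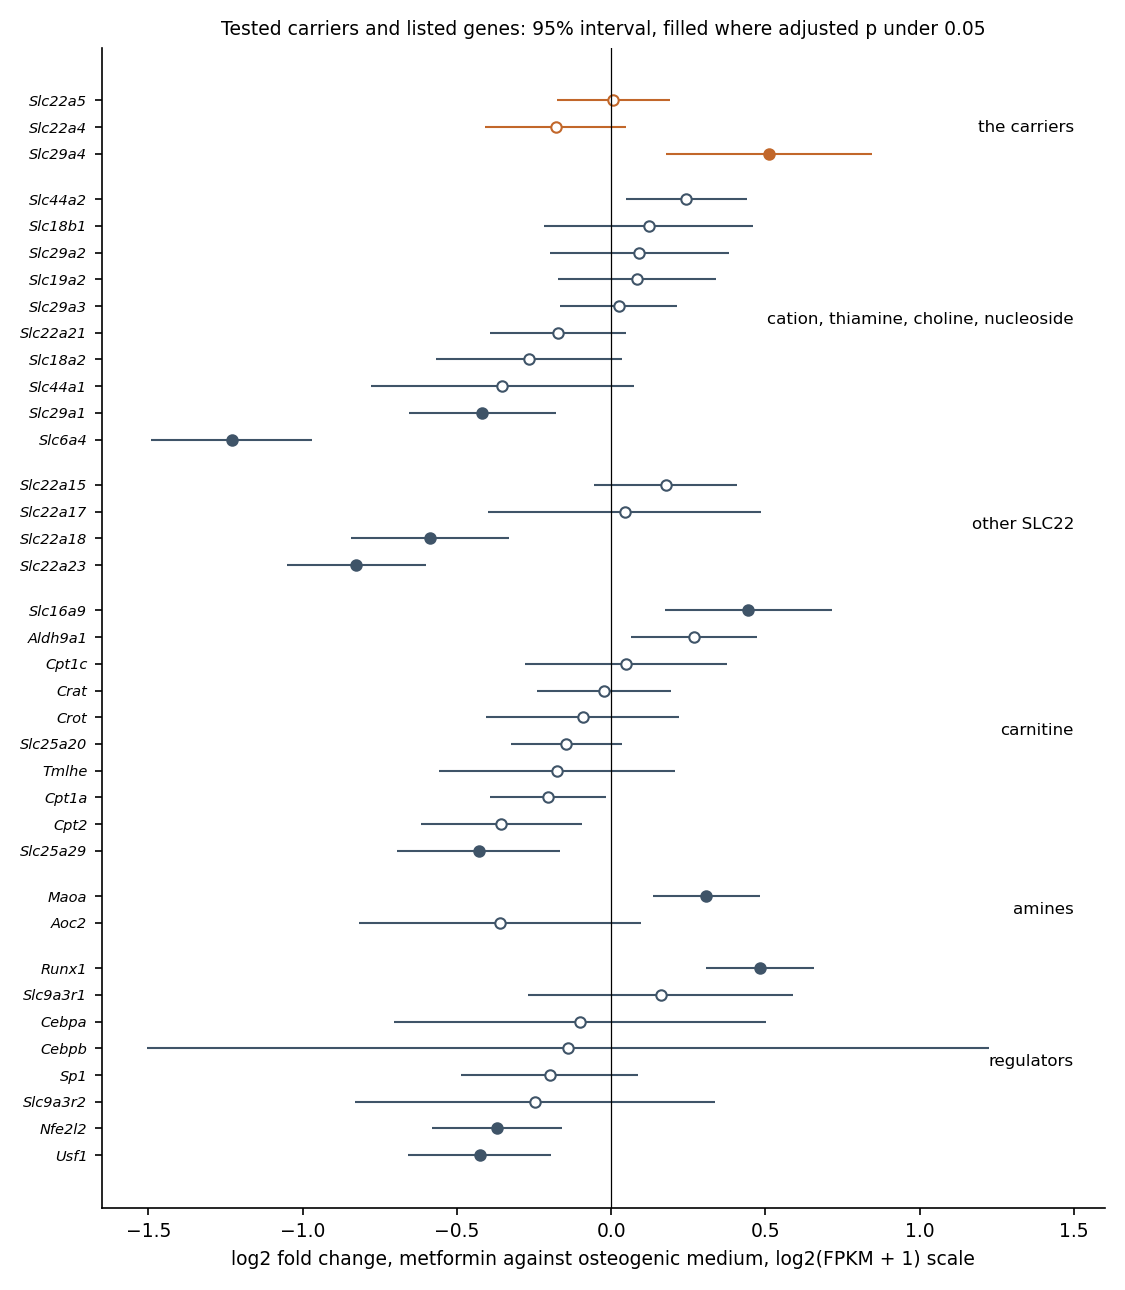
log2 fold change of metformin against osteogenic medium on the log2(FPKM + 1) scale (horizontal axis) with its 95% interval for the 3 tested carriers and 34 tested genes of the 5 lists (rows); filled points have a limma adjusted p under 0.05. Slc29a4 is the filled carrier, to the right of 0, and Slc6a4 and Slc22a23 lie farthest to the left.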

How the data were processed

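RNA of 6 samples of MC3T3-E1 cells was sequenced from TruSeq libraries. The study's methods give 3 biological replicates per condition. The authors deposited 1 table of normalized values, with a length for each gene and no named unit. Multiplied by gene length, 100% of the deposited values above 0 were whole multiples (tolerance 0.01) of a per-sample step, so they were read as FPKM and the reads were recovered. The aligner, the counting and the annotation of this table are not given in the sources used here; the submitters' processing notes list Bowtie 0.12.2, mm8 and mm9 without a role. Of the 54532 gene identifiers, 53585 have the coordinates of GENCODE M21 (GRCm38). The 6 value columns were matched to samples by the labels.

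The members and the gene lists were chosen with earlier results of these data known, so no list is independent evidence. Some listed genes are not reported by name here. The named genes are the 6 members, list genes that passed the test or served as examples, neighbours in the table and the 3 nearest patterns; Slc22a6, Slc22a8, Slc22a15, Slc22a17, Slc29a2, Slc29a3, Slc6a2, Slc6a3, Aoc2, Hnf4a, Pdzk1 and Slc9a3 were added after their values were seen. Groups were compared by limma-trend (limma 3.58.1, R 4.3.3) on log2(FPKM + 1) for the 12681 genes with a mean of at least 0.5 FPKM, with Benjamini-Hochberg adjustment over all of them. A count model had been planned for a count table and was not used. Members under the limit were given as reads with exact Poisson intervals, ratios with exact conditional intervals and two-sided exact permutation tests (scipy 1.17.1). At these depths 3 reads are 1.36e-05% to 1.63e-05% of a library; intervals and floors cover counting error only. The correlation of deviations between same-numbered samples was -0.0533, 0.000265 and -0.0549, so the numbers were not taken to pair samples. No pair of samples agreed within counting noise (median chi-square at least 1.14, where counting gives 0.455). Alternatives were the replicate block, voom on recovered reads, a pseudocount of 0.1, a filter of 10 or more reads in each sample or none at all, total-read scaling, a GC correction (spline with 5 degrees of freedom per library), the block with that correction and leaving out each sample. The fits were tested on simulated data. Transcripts were compared with BLAST+ 2.17.0 (near-identical: 95% over at least 200 bases), and figures drawn with matplotlib 3.10.9.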

Additional observations from a re-analysis of the deposited data

How the results depend on the processing

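The count of members called higher with metformin, 1 in the fit reported, was 0 with no filter on low values, with the replicate block, with the GC correction and with the replicate block and GC correction together, and between 0 and 1 when each sample was left out. The cause was not tested. With no filter 24801 genes entered both the limma fit and the adjustment, in place of 12681. Slc29a4 kept its direction in the 13 alternatives that gave a value, but kept its call in 5 of them and lost it in 8. It was called with 10 or more reads in each sample (limma adjusted p = 0.0178) and with total-read scaling (0.0473). Its log2 fold change was 0.51 with no filter (limma adjusted p = 0.0648) and with the replicate block (0.0642), 0.42 with the GC correction (0.125) and with the replicate block and GC correction (0.187), and 0.48 to 0.60 with 1 sample left out (0.0480 to 0.112). Slc22a5 lay near 0 and turned negative when scaled to total reads (-0.017), under the GC correction, alone and with the replicate block (-0.048 in both), and in the range of -0.028 to 0.026 with 1 sample left out. Slc22a2 ranged from -0.056 to 0.0039 with 1 sample left out. Slc22a4 stayed negative and not called in all 14 alternatives (-0.29 to -0.13), and Slc47a1 stayed negative in its 9. The exact permutation tests of Slc47a1 could not reach a p under 0.05, so they could give no call. With no filter its limma adjusted p was 0.576. Slc22a3 gave no value under any setting.

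Over all genes, 926 to 2974 were higher and 486 to 2587 lower with 1 sample left out, the most without OM1. Genes lower numbered 698 with the replicate block, 2434 with the GC correction and 1890 with both, and genes higher numbered 1161, 2062 and 1704. The GC correction moved the median log2 fold change by -0.054. With voom on recovered reads 1829 genes were higher and 1256 lower. The replicate block changed no call of a member other than Slc29a4, and of the 10 calls among the listed genes it kept 4 (Slc6a4, Slc22a23, Slc22a18 and Runx1), and it lost the call of Wipi2, the gene before Slc29a4 (adjusted p = 0.0557); same-numbered samples did not deviate together. Depth limits Slc22a2, Slc47a1 and Slc22a3 most: at 0 to 8 reads a sample, only changes larger than their intervals could be seen.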
